A study of Mus musculus with 4 samples.

Results

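Ribosome biogenesis and RNA polymerase I are described here through 47 mouse genes, listed by their known roles. A probe set of the array named 46 of them alone, and where several did, the one that was brightest on average was used. Noc2l was not analysed here because no probe set named it alone. All 46 lay above the level below which genes were not tested, and they stand beside 13956 genes tested in all. The cells were primary neurospheres from the subventricular zone of C57BL/6 mice aged 9 to 12 weeks, which are floating clusters grown from neural stem and progenitor cells. Every sample was transfected with non-targeting siRNAs and given pCLIG-Pax6 virus, which carries a transcription factor that promotes the neuronal fate. The control group of 2 arrays received 0.01% DMSO and the treated group of 2 arrays received 100 nM Olaparib, an inhibitor of the ADP-ribosylating enzymes PARP1 and PARP2, in 0.01% DMSO. Treatment began with the virus and went on for 36 h in suspension, and cells were then plated on laminin without growth factors for 10 h before RNA was taken. Arrays of a group are biological replicates per the labels, which do not say whether animals were pooled. The question was how transcript levels of early differentiating cells differ under PARP inhibition.

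Ribosomes are made in the nucleolus. RNA polymerase I, brought to the ribosomal DNA by Ubtf, the SL1 complex and Rrn3, transcribes a long precursor of most ribosomal RNAs. Small nucleolar ribonucleoproteins then guide chemical marks onto it, box C/D particles through the methyltransferase Fbl and box H/ACA particles through the pseudouridine synthase Dkc1, while separate sets of processing factors cut and fold the parts of the small and the large subunit. Many of these genes are known targets of the transcription factor Myc, and dividing progenitor cells are known to have large nucleoli. PARP1 is found in nucleoli as well as on chromatin, and the helicase Ddx21 is among the nucleolar proteins it is known to modify.

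With olaparib, 5 of the 46 members rose, 0 fell and 41 did not pass the threshold, an adjusted p under 0.05 in limma, a linear model that pools the spread across genes. Over all genes tested 2.84% were higher and 3.37% lower at that threshold, or 6.22% in either direction. The share higher depended on level. In 5 equal bins of all genes, from dim to bright, it was 0.215%, 1.11%, 3.94%, 4.41% and 4.55%. These bins held 0, 6, 12, 17 and 11 members. The members that rose were Pno1, Utp20, Rrs1, Nop14 and Polr1e, by 1.21-fold to 1.35-fold. With no adjustment, 10 members were higher and 1 was lower at p under 0.05, against 9.18% of all genes higher and 19.1% in either direction. The median change of the 46 was 0.10 on the log2 scale, against 0.0013 over all genes tested, and 34 changes lay above 0, or 73.9% against 50.5% of all genes. The olaparib arrays did not overlap with the DMSO arrays and were higher in 18 members, lower in 3, and overlapped in 25. Over all genes tested 23.2% were higher and 23.9% lower without overlap. The member median was 0.06 without DMSO replicate 1, 0.17 without olaparib replicate 1 and 0.05 without olaparib replicate 2. Since these are bulk samples, a different share of cells of a type and a different RNA level per cell cannot be told apart.

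**Figure D1:**
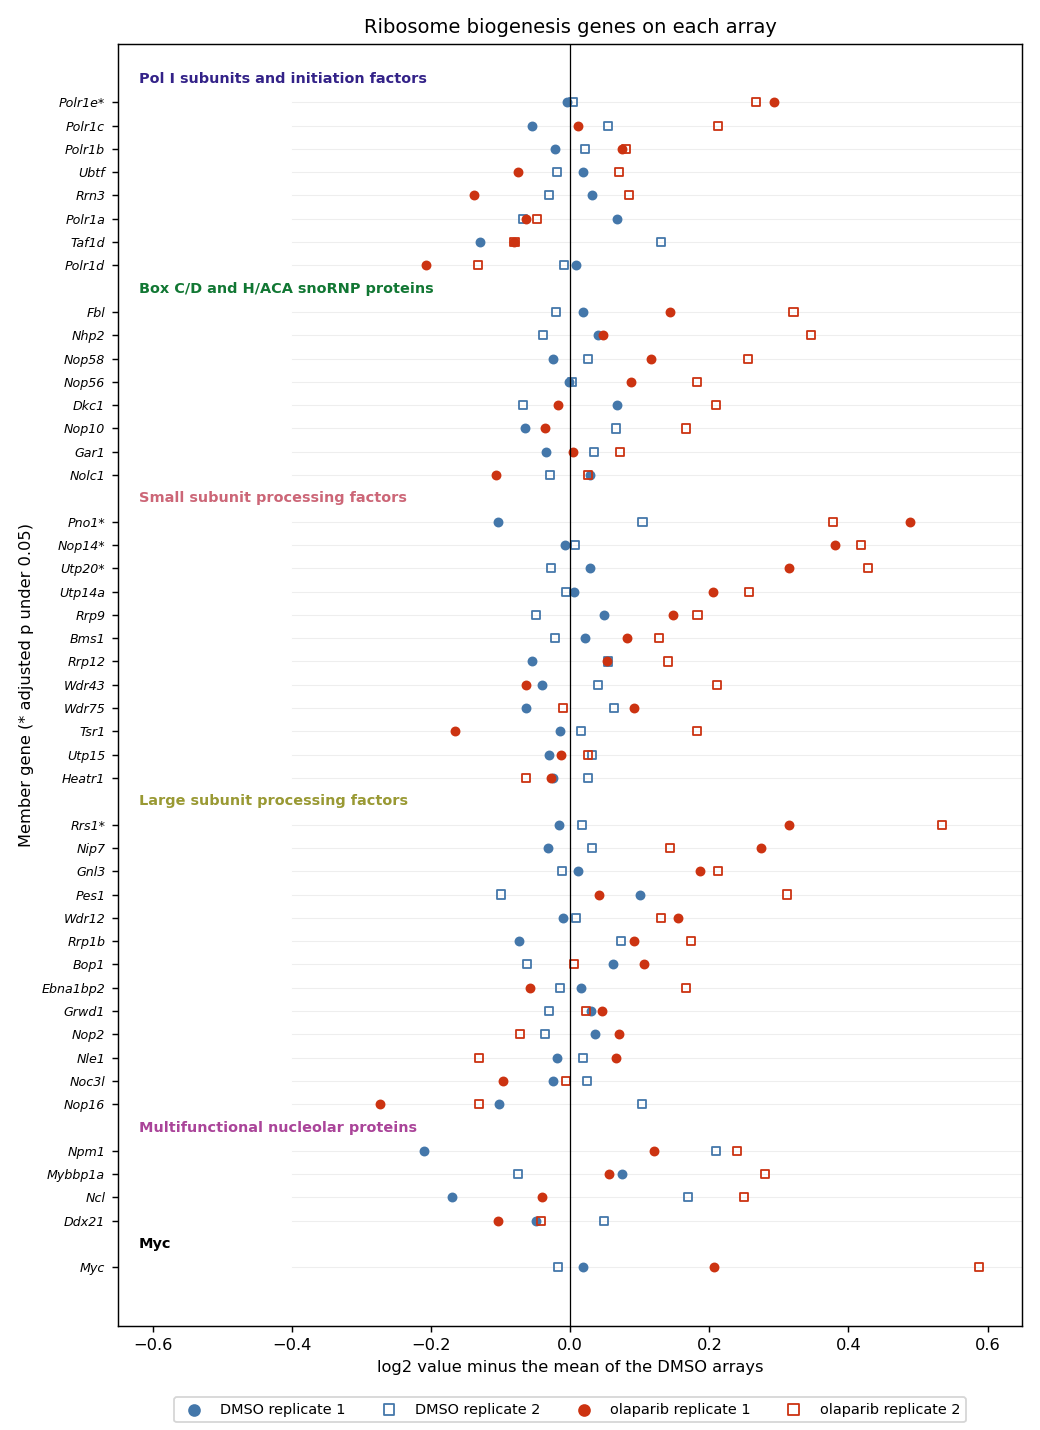
Each row is a member gene, ordered by change within its role, and each point is an array (x axis: log2 value minus the mean of the DMSO arrays). Stars mark the 5 members past the threshold, in which both olaparib arrays lie to the right of both DMSO arrays.

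Markers of the labelled cells were present. Of 9 neural stem and progenitor markers measured, 0 had a mean under 6.69, the 75th percentile of 30 genes of unrelated tissues, which serve as a gauge of background. Of 8 microglia markers 7 lay under it, and of 8 vascular and fibroblast markers 6 did. Array medians were 6.60 to 6.68 on the log2 scale. Across genes, which share arrays and are no replicates, arrays of a group correlated with r of 0.993 or 0.996 and arrays of different groups with r of 0.986 to 0.988.

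RNA polymerase I and its initiation factors had the lowest median of the 5 roles, -0.01 over 8 genes, and 1 rose, 0 fell and 7 did not pass (1 higher at an unadjusted p under 0.05). As above, 2.84% of all genes rose and 3.37% fell, and 9.18% were higher at an unadjusted p under 0.05. The same shares belong beside the counts of every list below. Polr1e, a subunit of the dimer that binds the polymerase core and helps it start and elongate, had log2 values of 7.20 and 7.21 in the DMSO arrays and 7.49 and 7.47 in the olaparib arrays. The groups lay apart and the arrays of each group nearly coincided. Polr1e rose 1.21-fold, a log2 change of 0.28 (SE 0.08, adjusted p = 0.0355 in limma). It did not pass in limma without DMSO replicate 1 (adjusted p = 0.344) or without DMSO replicate 2 (adjusted p = 0.278), nor under 4 of its other alternatives, over a range of 0.0239 to 0.344.

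The catalytic subunits did not pass the threshold. Polr1a, the largest subunit, had values of 7.66 and 7.52 with DMSO and 7.53 and 7.54 with olaparib, a difference of -0.06 (SE 0.08, adjusted p = 0.824 in limma). Its groups overlapped. Polr1b, the subunit that forms the active site with it, had values of 6.64 and 6.69 with DMSO and 6.74 and 6.75 with olaparib, a difference of 0.08 (SE 0.08, adjusted p = 0.690 in limma). Its groups did not overlap, but its DMSO mean of 6.67 lay under the background gauge of 6.69, so the size of that difference is uncertain. Polr1c, which RNA polymerase III shares, differed by 0.11. Polr1d, also shared with RNA polymerase III, had the lowest change of the role. Its values were 9.79 and 9.78 with DMSO and 9.58 and 9.65 with olaparib, a difference of -0.17 (SE 0.11, adjusted p = 0.472 in limma). A dimmer probe set of Polr1d gave 0.12, the opposite sign, so its direction is not settled.

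Of the factors that bring the polymerase to ribosomal DNA, Ubtf and Rrn3 lay close to 0. Ubtf, which binds along the ribosomal DNA, had values of 8.62 and 8.59 with DMSO and 8.53 and 8.68 with olaparib. The olaparib arrays lay on either side of the DMSO arrays, and the difference was -0.0022 (SE 0.10, adjusted p = 0.998 in limma). Rrn3, which links the polymerase to SL1, had values of 8.96 and 8.90 with DMSO and 8.79 and 9.02 with olaparib, with the same kind of overlap, and differed by -0.03 (SE 0.11, adjusted p = 0.952 in limma). Taf1d, a subunit of SL1, differed by -0.08 on the probe set used. The other 5 of its 6 probe sets gave 0.03 to 0.48, so the change of this gene depends on the probe set. With a mean over the probe sets of each gene in place of the brightest, the median of the role was 0.04. The median also changed sign with an array left out, from -0.07 without olaparib replicate 2 to 0.08 without olaparib replicate 1, and was 0.01 without either DMSO array.

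Proteins of the small nucleolar ribonucleoproteins had a median of 0.12 over 8 genes, but 0 passed the threshold in limma in either direction and 0 had an unadjusted p under 0.05. Changes lay above 0 in 7 of the 8. Fbl, the methyltransferase of box C/D particles, had the highest change of the role, with values of 9.72 and 9.68 with DMSO and 9.84 and 10.02 with olaparib. Both olaparib arrays lay above both DMSO arrays, by 0.23 in the mean (SE 0.12, adjusted p = 0.292 in limma). A dim second probe set of Fbl, at 6.61 to 6.89, gave 0.01. Without olaparib replicate 1 the difference of Fbl was 0.32.

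The other box C/D proteins, Nop56 and Nop58, which form the scaffold of the particle, differed by 0.13 and 0.19, with groups that did not overlap. Among the box H/ACA proteins Dkc1 had values of 7.58 and 7.45 with DMSO and 7.50 and 7.73 with olaparib. Olaparib replicate 1 fell between the DMSO arrays, and the difference was 0.10 (SE 0.09, adjusted p = 0.660 in limma). Nhp2 differed by 0.20, Nop10 by 0.06 and Gar1 by 0.04, and of these only Nhp2 had groups that did not overlap. Nolc1, a chaperone of both kinds of particle, had the lowest change, from 8.16 and 8.10 with DMSO to 8.03 and 8.16 with olaparib, a difference of -0.04 (SE 0.09, adjusted p = 0.897 in limma).

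In all 8 of these genes olaparib replicate 2 lay above olaparib replicate 1. With olaparib replicate 1 left out the median of the role was 0.20, and with olaparib replicate 2 left out it was 0.03. The box C/D median was 0.19 and the box H/ACA median 0.08, and with olaparib replicate 2 left out they were 0.12 and -0.0058. The difference between the kinds of particle was not tested.

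Small subunit processing factors held 3 of the 5 members that rose. Of these 12 genes 3 rose, 0 fell and 9 did not pass, with 5 higher at an unadjusted p under 0.05 and a median change of 0.10 (0.18 without olaparib replicate 1). Pno1, an RNA-binding factor of late small subunit maturation, had values of 7.52 and 7.73 with DMSO and 8.11 and 8.0 with olaparib. It rose by 0.43 (SE 0.09, adjusted p = 0.00797 in limma), a 1.35-fold change and the largest among the members. Utp20, a large scaffold protein of the small subunit processome, had values of 7.27 and 7.21 with DMSO and 7.55 and 7.67 with olaparib. It rose by 0.37 (SE 0.08, adjusted p = 0.00879 in limma). Nop14, another protein of that complex, had values of 8.07 and 8.08 with DMSO and 8.45 and 8.49 with olaparib, and rose by 0.40 (SE 0.09, adjusted p = 0.0126 in limma).

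In all 3 the olaparib arrays lay above the DMSO arrays, with a gap larger than the distance between the arrays of a group. Without DMSO replicate 1 none of the 3 passed, with limma adjusted p of 0.344 for Pno1, 0.0538 for Utp20 and 0.275 for Nop14. Without DMSO replicate 2 Pno1 passed, while Utp20 (adjusted p = 0.139 in limma) and Nop14 (adjusted p = 0.208) did not. Over their 15 alternatives the adjusted p ran from 0.000326 to 0.344 for Pno1, from 0.000716 to 0.146 for Utp20 and from 0.00134 to 0.275 for Nop14. A fit without a DMSO array takes its spread from the olaparib pair alone, whose median SD over all genes was 0.0767 against 0.0483 for DMSO. A fit without an olaparib array takes it from the tighter DMSO pair alone, so that its calls say nothing about the spread between olaparib arrays. For Pno1 the DMSO pair was the wider, with an SD of 0.147 against 0.0784 for the olaparib pair. The change of Pno1 was 0.33 without DMSO replicate 1 and 0.54 without DMSO replicate 2.

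The other 9 small subunit factors did not pass. Utp14a, which recruits a helicase to the processome, differed by 0.23 (adjusted p = 0.0853 in limma), with values of 7.15 and 7.14 with DMSO and 7.35 and 7.40 with olaparib, well apart. Rrp9, a protein of the box C/D particle that guides early cleavage, differed by 0.17, from a DMSO mean of 6.68 near background. Bms1, a GTPase of the processome, differed by 0.10, and Rrp12, which acts in late maturation and export, also by 0.10. Wdr43, Wdr75 and Utp15 belong to the subcomplex that binds the precursor as it is transcribed, and they differed by 0.07, 0.04 and 0.0058. Tsr1, a late factor related to Bms1, lay at 0.0078. Heatr1, of the same early subcomplex, had the lowest change, with values of 7.52 and 7.57 with DMSO and 7.52 and 7.48 with olaparib, barely apart, a difference of -0.05 (SE 0.08, adjusted p = 0.856 in limma).

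The promoters of the rising members were read from RefSeq on GRCm38.p6, as 250 bases before to 50 bases after the start of each transcript. They are shown because Myc and its partner Max bind the letters CACGTG, an E-box, which reads the same on both strands and was the one motif searched. Of the 5 members, Pno1 and Utp20 hold it and Nop14 and Polr1e do not, and Rrs1 was not matched. Both sequences are on the minus strand, printed 5′ to 3′ with the E-box in capitals, and in both its first base is base 38 of the transcript.
Pno1 promoter, chr11:17211540-17211839: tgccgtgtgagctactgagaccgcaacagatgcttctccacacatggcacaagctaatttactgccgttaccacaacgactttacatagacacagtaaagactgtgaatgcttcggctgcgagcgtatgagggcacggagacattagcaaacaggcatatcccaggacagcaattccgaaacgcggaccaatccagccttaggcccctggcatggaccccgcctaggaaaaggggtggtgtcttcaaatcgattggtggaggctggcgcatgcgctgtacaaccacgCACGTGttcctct
Utp20 promoter, chr10:88826765-88827064: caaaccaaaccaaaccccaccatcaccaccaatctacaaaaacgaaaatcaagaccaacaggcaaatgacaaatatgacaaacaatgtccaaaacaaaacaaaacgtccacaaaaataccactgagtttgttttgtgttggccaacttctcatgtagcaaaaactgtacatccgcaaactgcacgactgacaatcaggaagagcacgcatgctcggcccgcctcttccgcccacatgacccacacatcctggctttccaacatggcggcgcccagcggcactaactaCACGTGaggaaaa

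Among the 41 members with a promoter in that table, 10 held an E-box. By promoter these were 10 of 50, or 20%, against 7.15% of all 32851 promoters and 9.46% of the promoters of genes tested. The share was 18.3% for the promoters of other ribosome biogenesis genes and 13.2% for those of ribosomal protein genes. The 30 bases around the E-box show its place in the other 8 members. Capitals mark the E-box, strands are those of the gene (minus for Grwd1 and Nle1, plus for the rest), and position 1 is the first base of the transcript. The first base lies at 35 in Grwd1, 41 in Mybbp1a, 24 in Nle1, 3 in Pes1, 25 in Tsr1, 18 in Wdr43, -60 in Nop2, and -215 and -48 in Rrn3.
Grwd1, chr7:45830740-45830769: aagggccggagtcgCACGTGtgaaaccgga
Mybbp1a, chr11:72441347-72441376: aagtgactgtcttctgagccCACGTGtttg
Nle1, chr11:82908355-82908384: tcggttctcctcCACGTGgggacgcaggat
Pes1, chr11:3963965-3963994: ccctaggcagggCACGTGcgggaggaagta
Tsr1, chr11:74898092-74898121: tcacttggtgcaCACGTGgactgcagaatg
Wdr43, chr17:71616220-71616249: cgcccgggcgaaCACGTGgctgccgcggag
Nop2, chr6:125131811-125131840: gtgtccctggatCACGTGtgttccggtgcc
Rrn3, chr16:13780472-13780501: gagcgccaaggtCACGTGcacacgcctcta
Rrn3, chr16:13780639-13780668: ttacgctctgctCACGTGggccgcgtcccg

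In 8 of the 10 members the E-box lay in the 50 bases after the start, which make up 16.7% of the window. Among all promoters in the table that hold an E-box, 15.2% had one there. In other ribosome biogenesis genes it lay after the start in 12 of 23 promoters with an E-box, and in ribosomal protein genes in 0 of 7. A match is a description of letters and not of binding. Of the 40 tested members with a promoter, the 10 with an E-box had a median change of 0.05 and the 30 without it 0.09, and each set held 2 of the members that rose.

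Large subunit processing factors ran from the lowest change of all members, -0.20, to 0.42. Of 13 genes 1 rose, 0 fell and 12 did not pass, with 3 higher and 1 lower at an unadjusted p under 0.05, and the median was 0.06 (0.13 without olaparib replicate 1). Rrs1, which helps place the ribonucleoprotein of Rpl5 and Rpl11 into the large subunit, had values of 7.70 and 7.74 with DMSO and 8.03 and 8.26 with olaparib. The DMSO arrays nearly coincided and both olaparib arrays lay well above them. Rrs1 rose by 0.42 (SE 0.10, adjusted p = 0.00955 in limma), a 1.34-fold change. It did not pass in limma without DMSO replicate 1 (adjusted p = 0.139) or without DMSO replicate 2 (adjusted p = 0.0807), over a range of 4.8e-05 to 0.159. Nip7, an RNA-binding factor, differed by 0.21 and Gnl3, the GTPase nucleostemin of stem cells, by 0.20, with groups that did not overlap and adjusted p of 0.166 and 0.207 in limma.

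Nop16 had that lowest change, with values of 7.80 and 8.0 with DMSO and 7.63 and 7.77 with olaparib. The groups lay apart by less than the distance between the DMSO arrays, and the difference was -0.20 (SE 0.09, adjusted p = 0.245 in limma). The PeBoW complex, which processes large subunit RNA, consists of Pes1, Bop1 and Wdr12, and these differed by 0.18, 0.06 and 0.14. The second probe set of Wdr12 gave -0.04. Rrp1b differed by 0.13, Ebna1bp2 by 0.05, Grwd1, a chaperone of a ribosomal protein, by 0.03 and the RNA methyltransferase Nop2 by -0.00054. Nle1 and Noc3l lay at -0.03 and -0.05.

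The multifunctional nucleolar proteins did not pass, 0 of 4 in limma in either direction and 0 at an unadjusted p under 0.05. Ncl, which encodes nucleolin, had values of 10.20 and 10.54 with DMSO and 10.33 and 10.62 with olaparib. Npm1, which encodes nucleophosmin, had values of 10.08 and 10.50 with DMSO and 10.41 and 10.53 with olaparib. The arrays of each group of Ncl, and the DMSO arrays of Npm1, differed from each other by more than the group means did, and the groups overlapped. Ncl differed by 0.11 (SE 0.14, adjusted p = 0.765 in limma) and Npm1 by 0.18 (SE 0.14, adjusted p = 0.536 in limma). Npm1 has near-identical copies in the genome, and 3 further probe sets name it together with one, so its level is uncertain.

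Ddx21, the helicase named above as a target of PARP1, had values of 7.78 and 7.87 with DMSO and 7.72 and 7.78 with olaparib. The groups overlapped and the difference was -0.07 (SE 0.09, adjusted p = 0.759 in limma). Mybbp1a, a nucleolar protein that binds transcription factors, differed by 0.17 with overlapping groups. The median of these 4 genes was 0.14, and it was -0.04 without DMSO replicate 1, 0.25 without olaparib replicate 1 and 0.01 without olaparib replicate 2.

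Myc itself had log2 values of 8.70 and 8.67 with DMSO and 8.89 and 9.27 with olaparib. Both olaparib arrays lay above the DMSO arrays, but they differed from each other by more than olaparib replicate 1 differed from DMSO. The difference was 0.40 (SE 0.12, adjusted p = 0.0520 in limma), just short of the threshold. Olaparib replicate 1 alone gave 0.21 against DMSO, and olaparib replicate 2 alone gave 0.59. Over its 15 alternatives Myc passed under 7, with adjusted p in limma from 2.0e-05 to 0.396. The lowest came from olaparib replicate 2 alone with the spread of the DMSO pair, an SD of 0.026 for Myc against 0.27 in the olaparib pair.

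Mycn, the family member characteristic of neural progenitors, had values of 7.33 and 7.30 with DMSO and 6.99 and 6.87 with olaparib. Mycn fell, with a log2 change of -0.38 (SE 0.08, adjusted p = 0.00509 in limma). With DMSO replicate 1 left out it did not pass (adjusted p = 0.0634 in limma, and up to 0.129 over its 15 alternatives). So the olaparib arrays were lower than the DMSO arrays for Mycn and higher for Myc. Of the 12 genes of the Myc and Max network other than Myc, 0 rose, 1 fell and 11 did not pass. Of 18 Myc targets outside the nucleolus, 0 passed in limma and 3 were higher and 2 lower at an unadjusted p under 0.05. Their median was 0.12, and 0.06 without olaparib replicate 2.

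**Figure D2:**
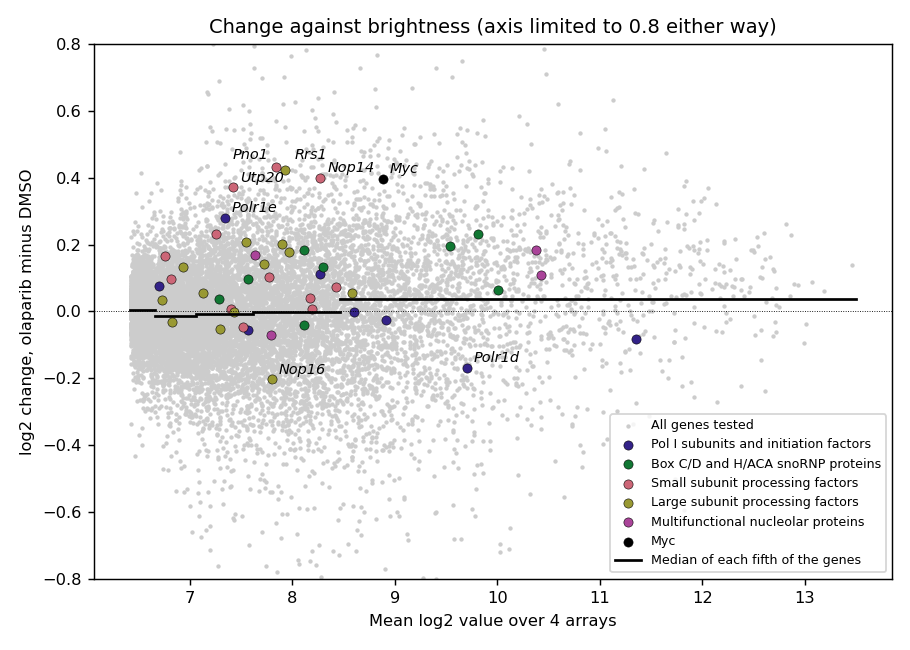
Each point is a gene, with its mean log2 value over 4 arrays on the x axis and its log2 change, olaparib minus DMSO, on the y axis; members are coloured by role and black lines are medians of 5 equal bins of all genes by level. The members past the threshold lie between 0.28 and 0.43, and Myc at 0.40.

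Other genes of the pathway, from a list of 138 that holds none of the members, were described in the same way. Of the 135 tested, 9 rose, 0 fell and 126 did not pass, a share of 6.67% against 2.84% over all genes, with 25 higher and 2 lower at an unadjusted p under 0.05. Their median change was 0.06, and 0.11 without olaparib replicate 1. Large subunit factors held 4 of the 9, or 8.51% of the 47 tested. Brix1, a factor that works with Rrs1 on early large subunit particles, rose by 0.48 (adjusted p = 0.00973 in limma) and Mak16 by 0.39. Rsl24d1 rose by 0.67, but its DMSO arrays read 7.99 and 8.96 and its olaparib arrays 9.26 and 9.02. Ccdc86 rose by 0.31.

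Small subunit factors that rose were Utp3 at 0.43, Utp11 at 0.42 and Ngdn at 0.33, or 6.38% of the 47 tested. Znhit6, which assembles box C/D particles, rose by 0.37, and Naf1, which assembles box H/ACA particles, by 0.33, among 12 other particle genes tested. Their adjusted p in limma lay at or under 0.0424. Without DMSO replicate 1 only Ccdc86 of these 9 passed in limma (adjusted p = 0.0451), and without DMSO replicate 2 only Rsl24d1 did. Without olaparib replicate 2 Ngdn and Ccdc86 did not. The highest adjusted p over the 15 alternatives ran from 0.285 for Znhit6 to 0.999 for Rsl24d1.

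None of 15 other genes of RNA polymerase I and its initiation passed in limma, and 0 had an unadjusted p under 0.05, with a median of 0.03. They include Twistnb, Cd3eap and Znrd1, the names in the files for the remaining subunits specific to RNA polymerase I, at 0.06, 0.04 and 0.09. Of 13 genes of RNA polymerase III, 0 passed in limma and 1 was higher and 2 lower at an unadjusted p under 0.05. Of 14 genes of the RNA exosome and related nucleases, which trim the precursors, 0 passed in limma and 1 was higher at an unadjusted p under 0.05.

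Cytosolic ribosomal protein genes, whose products the pathway assembles, showed small changes of mostly one sign. Of 81 listed, 56 were tested, since the rest had no probe set that named them alone. In limma 0 of the 56 passed and 3 were higher at an unadjusted p under 0.05, against 6.22% and 9.18% of all genes. Yet 50 changes lay above 0, or 89.3% against 50.5% of all genes, with a median of 0.10 against 0.10 for the members. Their highest change was 0.31 and that of the members 0.43. The ribosomal protein median was 0.04 without DMSO replicate 1, 0.17 without DMSO replicate 2, 0.18 without olaparib replicate 1 and 0.03 without olaparib replicate 2. The difference from the members was not tested.

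**Figure D3:**
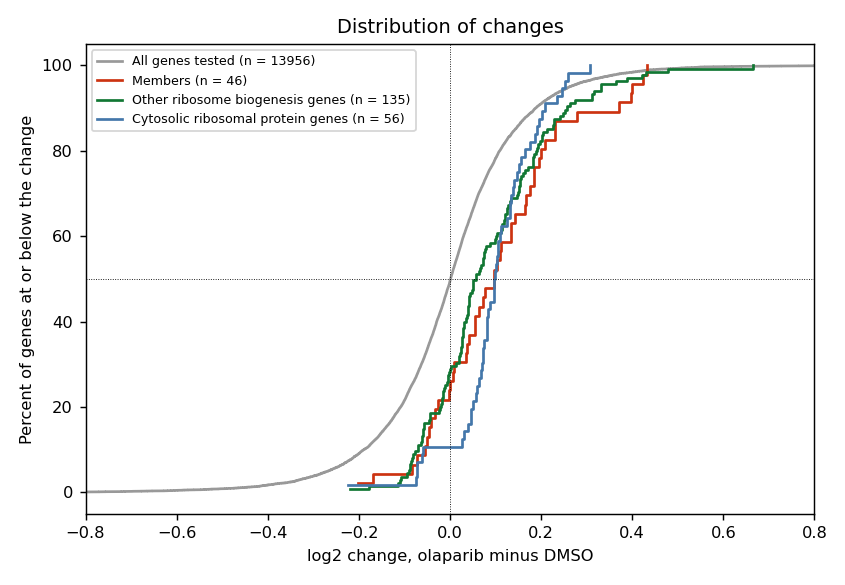
Curves give the percent of genes (y axis) at or below each log2 change, olaparib minus DMSO (x axis), for the members, other ribosome biogenesis genes, ribosomal protein genes and all genes tested. The member and ribosomal protein curves cross 50 percent near 0.10 and that of all genes near 0.

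Rpl5, the ribosomal protein that with Rpl11 binds the p53 inhibitor Mdm2 when ribosome assembly fails, differed by 0.13 (adjusted p = 0.654 in limma). Mdm2, which p53 also induces, had values of 9.37 and 9.47 with DMSO and 9.77 and 9.91 with olaparib. It rose by 0.42 (SE 0.11, adjusted p = 0.0310 in limma), but did not pass in limma without DMSO replicate 1 (adjusted p = 0.616) or without DMSO replicate 2 (adjusted p = 0.297), and 0.616 was its highest value over 15 alternatives. Rpl11 and Cdkn1a were not analysed here, because no probe set named them alone.

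The arrays of a group were not alike for the members. Measured from the mean of each gene over the 4 arrays, the member median was -0.06 and -0.04 in the DMSO arrays, 0.0065 in olaparib replicate 1 and 0.10 in olaparib replicate 2. Olaparib replicate 2 lay above olaparib replicate 1 in 35 of 46 members, and over all genes tested in 7732 of 13956. For ribosomal protein genes these medians were -0.12, 0.0062, -0.02 and 0.13, and olaparib replicate 2 was the higher in 50 of 56. Olaparib replicate 2 was also brighter among bright genes in general: among the 2791 brightest genes, with means of 8.47 to 13.5, its median lay 0.09 above the mean over the arrays, and that of olaparib replicate 1 lay at -0.05. The median change of those genes was 0.04, and in 4 dimmer bins of like size it lay between -0.01 and 0.0049. Of the members 11 lay among those brightest genes, and 0 of the 5 that rose. The next bin, with means of 7.62 to 8.47, held 17 members, 3 of those that rose among them. Its medians were -0.05 in olaparib replicate 1 and 0.04 in olaparib replicate 2. In the bin below, with 12 members and 2 of those that rose, they were -0.01 and 0.0052. The part of this difference between arrays in the small shifts of the members was not tested. In the 5 members that rose the groups did not overlap, so their changes had to lie above 0 with either olaparib array left out.

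**Figure D4:**
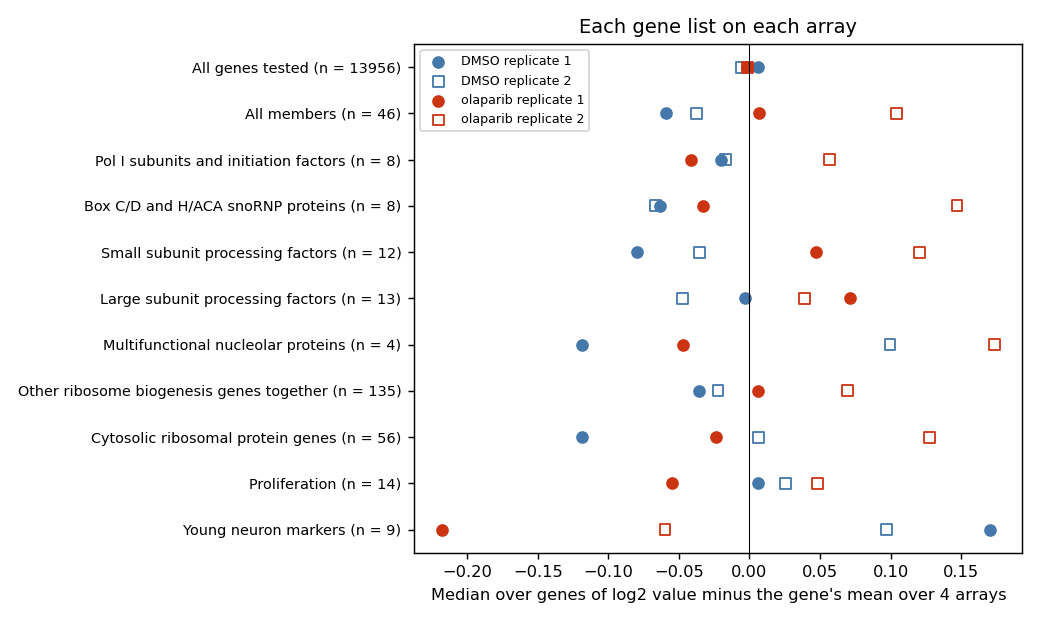
Points are arrays, placed at the median over the genes of each list of the log2 value minus the mean of that gene over the 4 arrays (x axis). For the members olaparib replicate 2 stands at 0.10 and the DMSO arrays at -0.06 and -0.04.

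Markers of cell types moved between the groups as well. Of 9 young neuron markers tested, 3 fell, 0 rose and 6 did not pass, with Dcx, a microtubule protein of migrating neuroblasts, at -1.05. Their summed linear level over all 10 was 4311 and 4437 in the DMSO arrays and 3012 and 3502 in the olaparib arrays. Of 8 astrocyte markers 2 fell, 0 rose and 6 did not pass, and their summed level was 14320 and 14130 with DMSO and 10730 and 12440 with olaparib. Of 7 oligodendrocyte lineage markers 1 rose, 0 fell and 6 did not pass, with a median change of 0.11. Their summed level was 1061 and 1085 with DMSO and 1151 and 1172 with olaparib, so the sums did not overlap. Singly, 2 of the 7 were higher without overlap, 1 was lower and 4 overlapped, and 2 had means under the background gauge. As above, 23.2% of all genes were higher and 23.9% lower without overlap. Of 14 proliferation genes 0 rose, 1 fell and 13 did not pass, and their summed level was 4145 and 4278 with DMSO and 3983 and 4331 with olaparib, so the groups overlapped. Of 9 stem and progenitor markers 0 rose, 1 fell and 8 did not pass, with a summed level of 15470 and 16560 with DMSO and 15250 and 16560 with olaparib. For the members the summed level was 16640 and 17870 with DMSO and 17490 and 19080 with olaparib, so the groups overlapped. Bright genes weigh most in such a sum. The part of a shift in cell types in the changes of the members was not tested.

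None of the 5 calls held with all 21704 probe sets above the same signal in the fit. That fit changed limma's prior for the spread, worth 5.25 degrees of freedom in place of 18.1, and also the number of rows adjusted over, and their parts were not told apart. In it 0 members passed in limma, with 7 at an unadjusted p under 0.05. In that fit 0.00461% of all rows were higher at the threshold. Adjusted p was then 0.157 for Pno1, 0.146 for Utp20, 0.159 for Rrs1, 0.140 for Nop14 and 0.195 for Polr1e. The log2 changes themselves were the same in both fits.

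**Figure D5:**
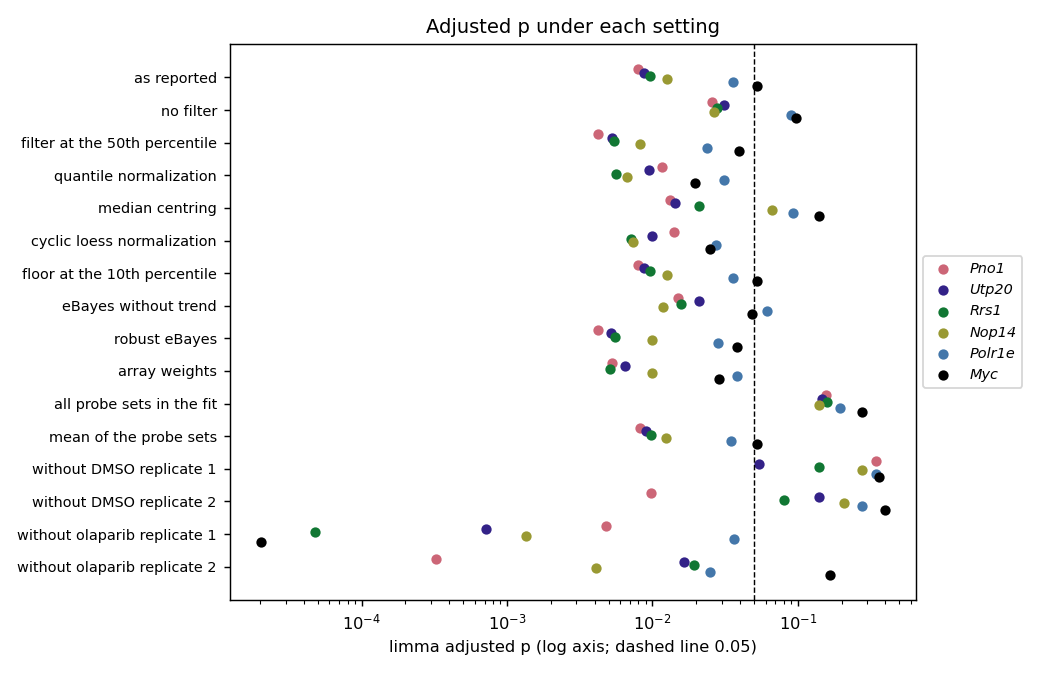
Each row is a setting and each point the limma adjusted p (x axis, log scale) of a member that rose, or of Myc, with a dashed line at 0.05. The points of all 6 genes lie to the right of the line with all probe sets in the fit and without DMSO replicate 1.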

How the data were processed

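Each array, an Affymetrix mouse gene array, received biotin-labelled product amplified from 40 ng of RNA, per the labels' protocols. The deposited values are log2 levels per probe set; background correction and normalization are not given in the sources used here. Of 34760 probe sets 21640 named 1 gene, and names were updated through the RefSeq table of GRCm38.p6 (19855 of 19938 genes matched). A gene was tested where its mean exceeded 6.42, the 30th percentile. Two-sided tests came from limma 3.58.1 in R 4.3.3, by lmFit and by eBayes with a trend, and p-values were adjusted over 13956 genes by Benjamini-Hochberg. The fit was tested on simulated data, with 200 of 13956 genes changed and no shift shared between genes. It recovered 57.9% of 1.3-fold and 96.7% of 1.5-fold changes, so small changes of members can be missed. The simulated spreads came from the prior of the same fit and were equal in both groups. In the arrays the olaparib pair was the wider (median SD 0.0767 against 0.0483 for DMSO), so recovery there may differ. Replicate numbers pair nothing, and p-values measure the spread between these arrays only. The number of arrays limits the precision.

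Members, roles and lists were chosen with earlier results of these data known. The 10 genes fixed for values on every array were Polr1a, Polr1b, Ubtf, Rrn3, Fbl, Dkc1, Ncl, Npm1, Ddx21 and Myc; members past the threshold and the highest and lowest of each role with over 4 members were added, and from other lists up to 4 genes past the threshold, with Mycn, Rpl5, Rpl11, Mdm2 and Cdkn1a. Values of Utp14a, chosen after they were seen, were added. Alternatives were other filters, normalizations, floors, moderations, array weights, rows in the fit, probe set means, an adjusted p of 0.1 and each array left out. Figures used matplotlib 3.10.9 (Python 3.11.15).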

Additional observations from a re-analysis of the deposited data

How the results depend on the processing

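No paired analysis was possible because the replicate numbers follow the order of the samples and the labels pair none of them. Over all genes, the 397 higher and 471 lower became 257 higher without a filter, 1 and 11 with all probe sets in the fit, 606 and 715 at an adjusted p of 0.1, 779 lower with quantile normalization and 732 lower with cyclic loess. Leaving out an array gave 97 to 1274 higher and 161 to 1032 lower. The members counted as higher were 3 with median centring, 0 with all probe sets in the fit and 0 to 11 with an array left out; in the 0 without DMSO replicate 1, 8 had an unadjusted p under 0.05. With an array left out the medians ran from 0.0548 to 0.165 for the members, -0.0689 to 0.0752 for RNA polymerase I, 0.0844 to 0.182 for small subunit factors, 0.0402 to 0.130 for large subunit factors and -0.0443 to 0.249 for the multifunctional proteins. The RNA polymerase I median was 0.0375 with probe set means, and the large subunit median 0.0945 with a filter at the 50th percentile, over fewer genes. Settings were followed gene by gene for the 10 fixed members, the called ones and the highest and lowest of each role with over 4 members. Among these, the changes of 7, none of them called, changed sign with an array left out. Polr1a ran from -0.123 to 0.0122, Ubtf from -0.0746 to 0.0703 and Rrn3 from -0.138 to 0.0848. Dkc1 ran from -0.0164 to 0.211 and Ncl from -0.0598 to 0.279. Npm1 ran from -0.0288 to 0.396 and Nolc1 from -0.106 to 0.0248. Further members changed sign too, such as Tsr1, from -0.166 to 0.182, and Wdr43, from -0.063 to 0.21. A fit without an olaparib array rests on the tighter DMSO pair for its spread, and one without a DMSO array on the olaparib pair. Where the construction does not show it, the cause was not tested. Over the members followed gene by gene, 266 of the comparisons with an alternative kept side and direction, 18 lost a call, 9 gained one and 10 changed sign. The other members were not counted there. Of the 46 members, 25 had a dimmer group mean under 7.77, the highest of the genes of unrelated tissues, 4 of the 5 that rose among them, so sizes there are less certain.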
